A study of Arabidopsis thaliana with 12 samples.

Results

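The trehalose phosphate phosphatases of Arabidopsis thaliana, TPPA to TPPJ, are 10 of the 33602 genes in the count table of this series, and they were taken by their loci. RNA of whole seedlings, 12 days old by the labels, was sequenced from the wild type accession Col-0 and from a mutant labelled m9, each without treatment (control) and with abscisic acid (ABA), with 3 libraries in each of the 4 groups. ABA is the hormone that plants make under drought, and its dose and time for these libraries are not given in the sources used here. The study names OK100-oct as the sequenced mutant, so m9 is taken as that line. OK100-oct is a CRISPR-Cas9 line in Col-0 with lesions in 8 RAF kinase genes of the groups B2 (RAF7, RAF8, RAF9, RAF10 and RAF11) and B3 (RAF3, RAF4 and RAF5). The study reports that RAFs of these groups act on SnRK2 kinases, although it detected no activity of the RAF8 and RAF9 kinase domains in vitro. The label itself gives only m9, and the study also made OK100-nonu, a line with RAF6 mutated as well. The study states for its experiments in general that seedlings were taken from different plates. It does not say whether the 3 libraries of a group came from separate cultures, so p-values measure only the spread between these libraries.

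Trehalose 6-phosphate (T6P) is a sugar phosphate present in plants in trace amounts that follows sucrose supply. Trehalose phosphate synthase (TPS) makes it from UDP-glucose and glucose 6-phosphate, a TPP removes the phosphate to leave trehalose, and trehalase splits trehalose into glucose. T6P inhibits SnRK1, the kinase that is active when carbon is short, and the TPP enzymes are the step that removes T6P. Members of the family have been linked in Arabidopsis to stomatal closure, root growth and tolerance of drought or salt.

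Total counts ranged from 16632701 to 26661613 per library. Over the 8 RAF genes, 5 were lower in m9 than in wild type under control conditions, 6 were lower with ABA and none was higher, by edgeR at a false discovery rate (FDR) below 0.05, and none was higher at an unadjusted p below 0.05. Of all 20617 tested genes 2.29% were lower in m9 under control conditions and 20.7% with ABA. Their summed level, in counts per 1000000 counts (CPM) scaled by TMM factors, was 254 to 299 in WT control and 133 to 150 in m9 control. WT control replicate 3 stood farthest from its group, with a chi-square per gene of 46.8 against replicate 2 where the 12 pairs of replicates ran from 4.39 to 46.8, and it is left out beside the results it moves. A transcript that remains does not show whether its gene is edited. Shoot markers summed to 30099 CPM or more in every library, against at most 102 CPM for root markers and at most 4.40 for flower markers, and seed markers stayed at or under 3.002.

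The 10 genes lie on chromosomes 1, 2, 4 and 5 (TAIR10.1 annotation of RefSeq) and encode proteins of 320 to 385 residues. TPPA (AT5G51460), with the longest protein, spans chr5:20900859-20904647. TPPB (AT1G78090) lies at chr1:29373803-29376639, TPPC (AT1G22210) at chr1:7841432-7844056 and TPPD (AT1G35910) at chr1:13362962-13365172. TPPE (AT2G22190) lies at chr2:9433616-9436658, TPPF (AT4G12430) at chr4:7365257-7368730, TPPG (AT4G22590) at chr4:11893499-11896480 and TPPH (AT4G39770) at chr4:18448865-18451305. TPPI (AT5G10100) lies at chr5:3157694-3161708 and TPPJ (AT5G65140) at chr5:26019457-26022380. The closest relatives by aligned protein sequence were TPPF and TPPG with 83.2% identical residues, TPPE and TPPH with 80.2%, TPPI and TPPJ with 76.6%, and TPPB and TPPC with 69.2%. No exon window of 50 bases was shared between any 2 members, so reads of that length can be assigned to one of them. In TPPA, 70 exon bases overlap AT5G51465, a gene on the opposite strand that has no row in the count table.

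In the 250 bases before the annotated gene start, 8 of the 10 members held ACGTG on either strand, the core of the ABA-responsive element that bZIP factors bind, against 23.1% of 26712 protein-coding genes. The G-box CACGTG, which contains ACGTG on both strands, was in 3 of the 10 members, TPPE, TPPH and TPPJ, against 6.58% of all. CCGAC, the core bound by DREB factors, was in 1 of the 10 members, TPPA, against 11.9%. In the 1000 bases before the start, ACGTG was in 9 of the 10 members against 54.5% of all, CACGTG in 7 against 14.9% and CCGAC in 4 against 37.3%. These matches are a description of the letters and not of bound sites. The 3 G-boxes are shown because TPPE, TPPH and TPPJ differed in their response to ABA below, with the G-box in capitals and 40 bases in each.
TPPE G-box (chr2:9436710-9436749, minus strand): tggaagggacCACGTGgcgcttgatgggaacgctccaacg
TPPH G-box (chr4:18451522-18451561, minus strand): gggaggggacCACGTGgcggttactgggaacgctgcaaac
TPPJ G-box (chr5:26022428-26022467, minus strand): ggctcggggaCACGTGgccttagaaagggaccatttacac

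TPPE and TPPH had 32 of these 40 bases in common, while TPPE and TPPJ had 21 and TPPH and TPPJ had 22. The G-box began 81 bases before the start of TPPE, 246 bases before that of TPPH and 77 bases before that of TPPJ. The whole windows of TPPJ, TPPB and TPPD are given next, TPPJ for its difference between genotypes and the other two for their changes of at least 3-fold with ABA, with ACGTG or its reverse complement in capitals.
TPPJ upstream (chr5:26022381-26022630, minus strand): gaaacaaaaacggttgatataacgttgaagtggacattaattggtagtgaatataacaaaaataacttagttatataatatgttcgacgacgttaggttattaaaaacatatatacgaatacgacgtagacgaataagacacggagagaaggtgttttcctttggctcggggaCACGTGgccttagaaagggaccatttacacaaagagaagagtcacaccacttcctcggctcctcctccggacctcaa
TPPB upstream (chr1:29373553-29373802, plus strand): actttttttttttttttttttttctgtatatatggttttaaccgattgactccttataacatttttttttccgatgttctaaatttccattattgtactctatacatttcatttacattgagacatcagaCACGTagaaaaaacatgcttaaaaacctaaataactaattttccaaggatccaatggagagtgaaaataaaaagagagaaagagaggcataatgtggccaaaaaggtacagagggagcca
TPPD upstream (chr1:13365173-13365422, minus strand): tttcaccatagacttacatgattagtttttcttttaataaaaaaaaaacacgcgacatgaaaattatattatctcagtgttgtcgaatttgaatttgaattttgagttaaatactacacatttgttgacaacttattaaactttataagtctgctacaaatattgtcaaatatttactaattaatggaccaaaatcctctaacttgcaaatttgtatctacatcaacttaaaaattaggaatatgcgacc

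The TPPJ window holds ACGTG only in its G-box, the TPPB window holds 1 ACGTG on the reverse strand at 120 bases before the start, and the TPPD window holds none. Of the 4 members that were higher with ABA in wild type, 3 had ACGTG in the window, as did all 3 that were lower.

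Levels of the members were compared per kilobase of exon (CPM per kb), because their exon lengths run from 1.29 kb to 2.55 kb. In WT control, TPPA was highest at 10.5 ± 1.32 CPM per kb (SD, n = 3, as for the levels that follow). TPPB with 6.48 ± 1.79, TPPE with 6.29 ± 2.44 and TPPH with 6.15 ± 0.64 followed and did not differ beyond their spread. TPPJ came next at 2.99 ± 1.13, and TPPI with 0.992 ± 0.218 and TPPD with 0.652 ± 0.432 were lowest of the tested members, again within their spread of each other. With ABA the order in wild type was TPPE at 11.9 ± 1.51, TPPJ at 8.64 ± 1.10 and TPPA at 4.23 ± 0.71. TPPI with 2.58 ± 0.31, TPPH with 2.47 ± 0.47, TPPD with 2.39 ± 0.52 and TPPB with 1.88 ± 0.51 followed within their spread.

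In m9 control the first place was held by TPPA at 12.6 ± 1.15 CPM per kb, and TPPB followed at 10.5 ± 1.16. TPPH with 7.38 ± 0.39 and TPPE with 7.20 ± 1.13 were within their spread, and TPPJ at 2.70 ± 0.18, TPPI at 2.13 ± 0.43 and TPPD at 0.926 ± 0.303 were below them. With ABA in m9, TPPE at 7.33 ± 0.84 and TPPA at 7.05 ± 0.52 shared the top of the order within their spread. TPPB at 4.81 ± 0.42 and TPPH at 4.45 ± 0.29 followed, then TPPI at 3.48 ± 0.60 and TPPJ at 3.39 ± 0.44, and TPPD was lowest at 1.69 ± 0.27. TPPJ was thus second in wild type with ABA, while in m9 with ABA it stood with TPPI, within their spread, above TPPD alone.

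**Figure D1:**
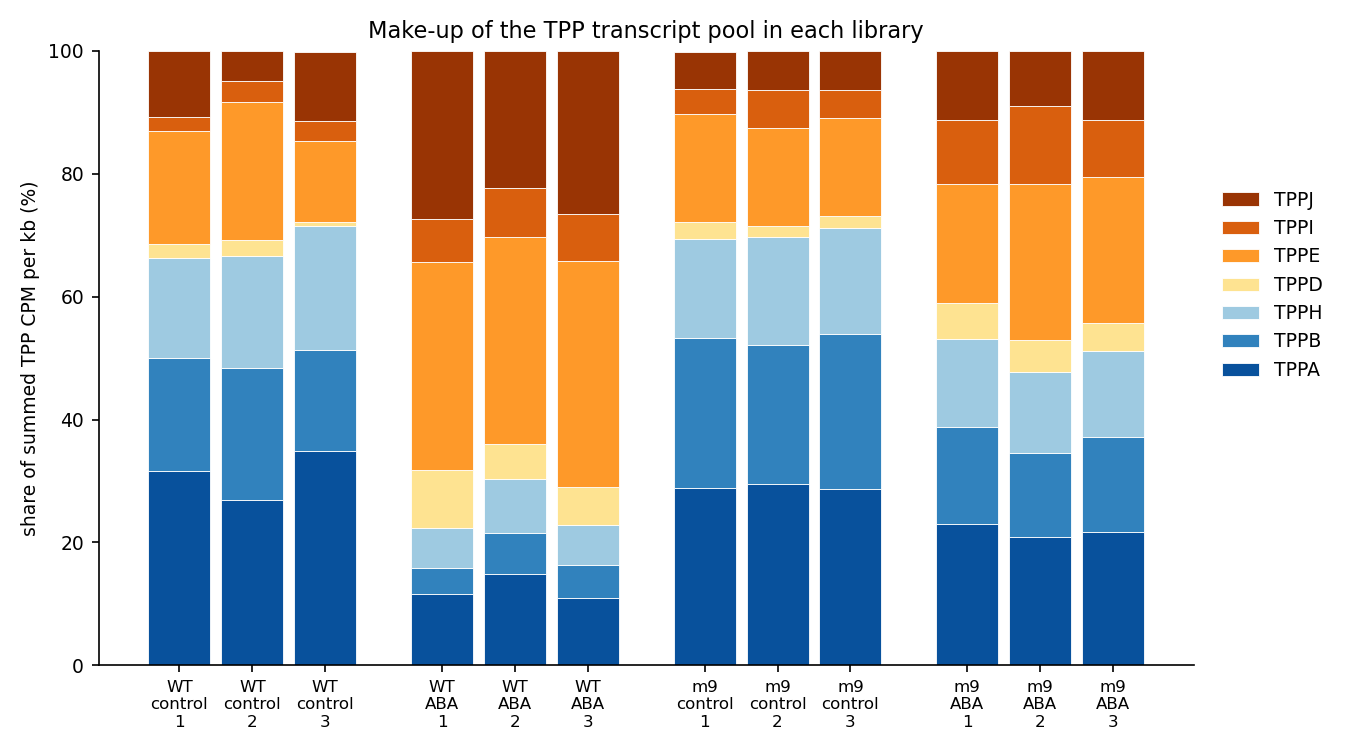
Share of each member in the summed TPP level per kilobase of exon (y axis, percent) in each of the 12 libraries (x axis, by group and replicate). TPPA, TPPB and TPPH (blue) hold 66.3% to 71.5% in the WT control libraries and 22.3% to 30.3% in the WT ABA libraries, and 47.7% to 53.1% in the m9 ABA libraries. TPPC, at most 0.273% in any library, is not drawn. TPPF and TPPG were listed at 0 in every library and add nothing to the sum, and those zeros are not read as absence.

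After TMM scaling, the summed level of the family in wild type differed between control and ABA by less than the SD of the control. Its make-up changed. The members summed to 67.0 ± 10.8 CPM in WT control and 64.7 ± 5.07 CPM in WT ABA. The sums in m9 were 84.7 ± 7.79 CPM in control and 61.8 ± 2.38 CPM with ABA. By library totals in place of TMM factors, the WT control libraries had 84.2, 76.7 and 57.2 CPM. The WT ABA libraries then had 51.5, 58.0 and 60.2 CPM. WT control replicate 3 lay among these ABA values and the other controls lay above them. The closeness of the wild type sums therefore depends on the TMM factors. TPPA, TPPB and TPPH together held 68.2% ± 2.92 of the summed level per kilobase in WT control and 25.2% ± 4.48 in WT ABA. In m9 they held 70.1% ± 0.92 in control and 50.6% ± 2.72 with ABA. This grouping follows the direction of change and is given as a description. TPPF and TPPG enter the sums and shares at 0, which is not read as absence below. The sums and shares therefore describe only the members with counts.

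TPPF, which has been linked to drought tolerance, and TPPG, which has been linked to stomatal closure by ABA, were listed at 0 in every one of the 12 libraries. A count of 0 allows up to 3 counts, or 0.113 to 0.180 CPM, for counting error only. RefSeq marks a short reading frame upstream of the coding sequence (uORF) in both genes, at chr4:7367442-7367516 in TPPF and at chr4:11895435-11895509 in TPPG. The count table also has a row for AT4G12432 and one for AT4G22592, loci next in number that have no entry in the RefSeq annotation, and both were at 0. Among the 84 genes of the table with such a uORF mark, 47 were at 0 in all libraries, or 56.0%, against 10.9% of 26628 other protein-coding genes. Of the 36 with a table-only locus next in number, 30 were at 0, and so were all 43 of those loci. The counting of overlapping genes is not stated, so these zeros are not read as absence of the 2 transcripts, and what sets them was not tested. TPPC had 8 counts in all 12 libraries, at most 4 in one, and was not tested.

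The first comparison was ABA against control in wild type, which asks which members respond to the hormone. All 7 tested members changed: TPPD, TPPE, TPPI and TPPJ were higher, and TPPA, TPPB and TPPH were lower. Of all 20617 tested genes 32.2% were higher and 36.4% were lower by the same rule, so the 7 of 7 stand beside a response that reached most genes. The members moved both ways, so their median log2 fold change, 0.92 against -0.06 for all tested genes, is that of TPPE and does not describe the family. Only 7 of the 10 members passed the filter on low counts. Fewer cells of a type and less RNA per cell cannot be told apart in whole seedlings, and shoot markers summed to 35951 to 38531 CPM in WT control and 30099 to 33270 CPM in WT ABA, where 3 of the 4 were lower. Guard cell markers summed to 48.1 to 56.1 CPM in WT control and 36.1 to 38.4 CPM in WT ABA, but the 4 genes went both ways. MYB60 fell from a mean of 16.3 to 3.14 CPM, SCAP1 rose from 5.75 to 8.87 CPM, and FAMA and KAT1 did not pass the test. Root markers summed to 52.3 to 73.4 CPM in WT control and 87.7 to 96.6 CPM in WT ABA, where 4 of the 6 were higher. Their part in the TPP changes was not tested.

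**Figure D2:**
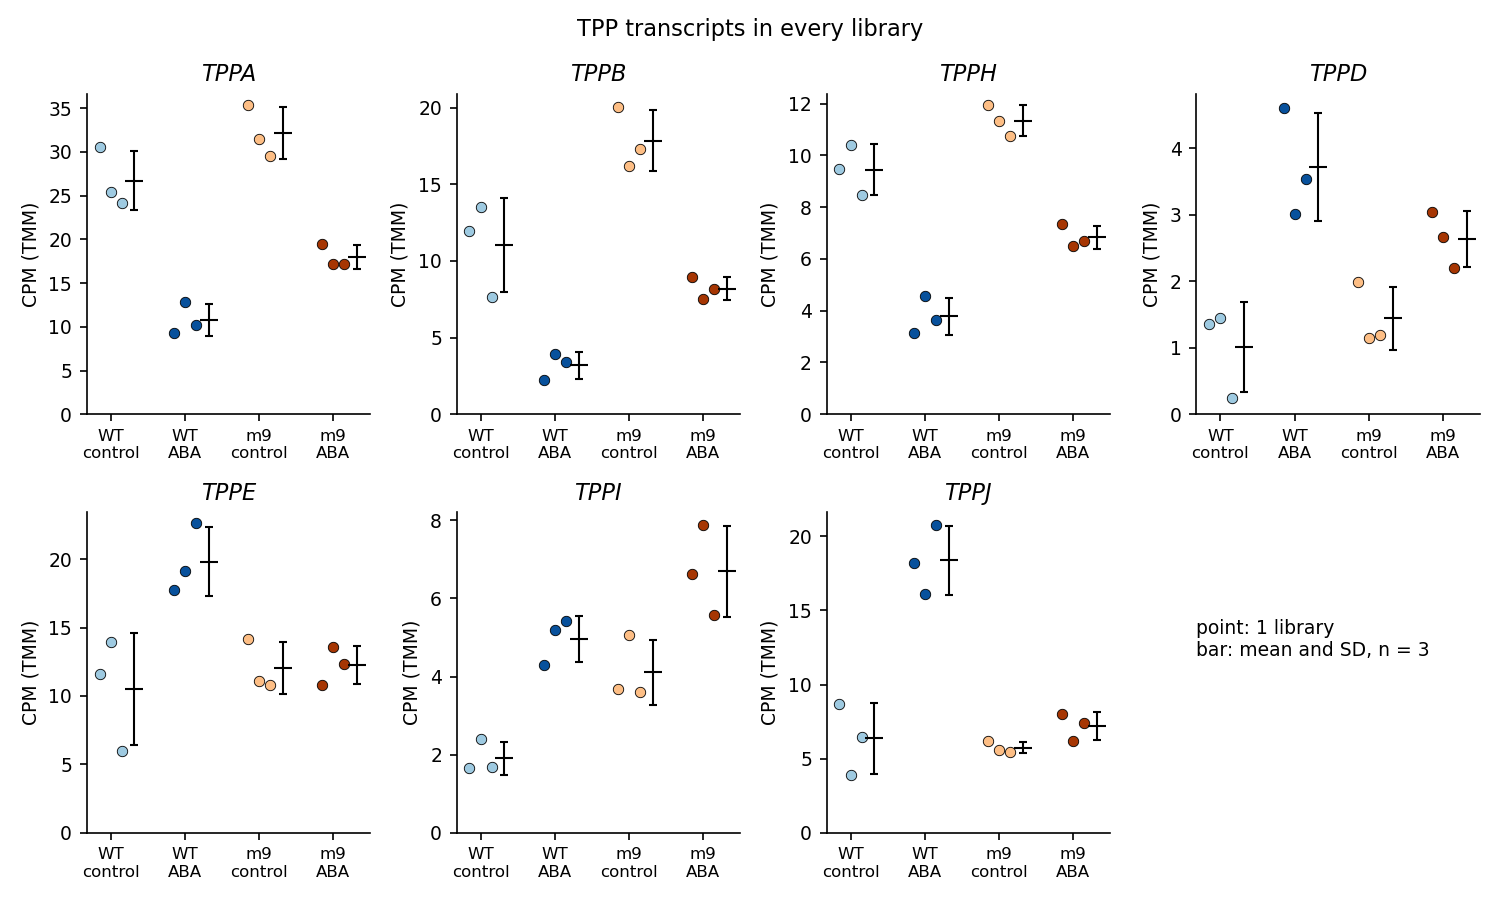
CPM after TMM scaling (y axis) for the 7 tested members in the 3 libraries of each group (x axis), with 1 point per library and a bar for the mean and SD. All 3 WT ABA points lie below the WT control points for TPPA, TPPB and TPPH and above them for TPPD, TPPE, TPPI and TPPJ. How many of all genes had groups apart in this way was not counted.

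TPPA, the member with the highest control level, had 30.5, 25.4 and 24.2 CPM in WT control and 9.30, 12.8 and 10.2 CPM in WT ABA. Every ABA library was well below the lowest control library. The log2 fold change was -1.30 with an SE of 0.13, which is a 2.47-fold fall (edgeR, adjusted p = 1.33e-06). TPPB, studied for its part in leaf growth, had 12.0, 13.5 and 7.63 CPM in WT control and 2.23, 3.94 and 3.43 CPM in WT ABA. Replicate 3 was the lowest of the controls and still above each treated library. TPPB fell 3.43-fold (log2 fold change -1.78, SE 0.22, edgeR adjusted p = 1.06e-05). TPPH, the closest relative of TPPE, had 9.47, 10.4 and 8.45 CPM in WT control and 3.14, 4.57 and 3.64 CPM in WT ABA. It fell 2.48-fold (log2 fold change -1.31, SE 0.14, edgeR adjusted p = 2.89e-06).

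TPPJ had 8.72, 3.89 and 6.48 CPM in WT control and 18.2, 16.1 and 20.8 CPM in WT ABA. The treated libraries were all above the controls, which spread from 3.89 to 8.72. It rose 2.87-fold (log2 fold change 1.52, SE 0.21, edgeR adjusted p = 2.34e-05). TPPI, its closest relative, which has been linked to drought tolerance, had 1.65, 2.39 and 1.68 CPM in WT control and 4.28, 5.19 and 5.41 CPM in WT ABA. It rose 2.61-fold (log2 fold change 1.38, SE 0.21, edgeR adjusted p = 6.80e-05).

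TPPE, which has been linked to ABA control of root growth, had 11.6, 13.9 and 6.002 CPM in WT control and 17.7, 19.1 and 22.6 CPM in WT ABA. Control replicate 3 was far below the other controls. TPPE rose 1.89-fold (log2 fold change 0.92, SE 0.23, edgeR adjusted p = 0.00262), and without that library its log2 fold change was 0.63 (adjusted p = 0.00187). TPPD, a redox-regulated enzyme linked to salt tolerance, had 27, 26 and 5 counts in WT control, or 1.35, 1.45 and 0.240 CPM. In WT ABA it had 101, 72 and 66 counts, or 4.60, 3.02 and 3.54 CPM. Control replicate 3 was again the lowest. TPPD rose 3.71-fold (log2 fold change 1.89, SE 0.40, edgeR adjusted p = 9.16e-04), from the fewest counts of the 7.

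The study called a gene differentially expressed when it also changed at least 3-fold. By that rule TPPD was higher and TPPB was lower in wild type with ABA, 1 member in each direction, against 7.18% and 7.16% of all tested genes. Both calls rested on a single library: without WT control replicate 3 the log2 fold change of TPPD was 1.41, and without WT ABA replicate 1 that of TPPB was -1.57, each under 3-fold. TPPJ passed 3-fold without WT control replicate 1 (log2 fold change 1.81) and without WT ABA replicate 2 (1.61). With library totals in place of TMM factors TPPD was at 1.58, just under 3-fold, while TPPA at -1.61, TPPB at -2.09 and TPPH at -1.61 passed, so that by that rule no member was higher and 3 were lower. That pair of choices was taken up after seeing the data.

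**Figure D3:**
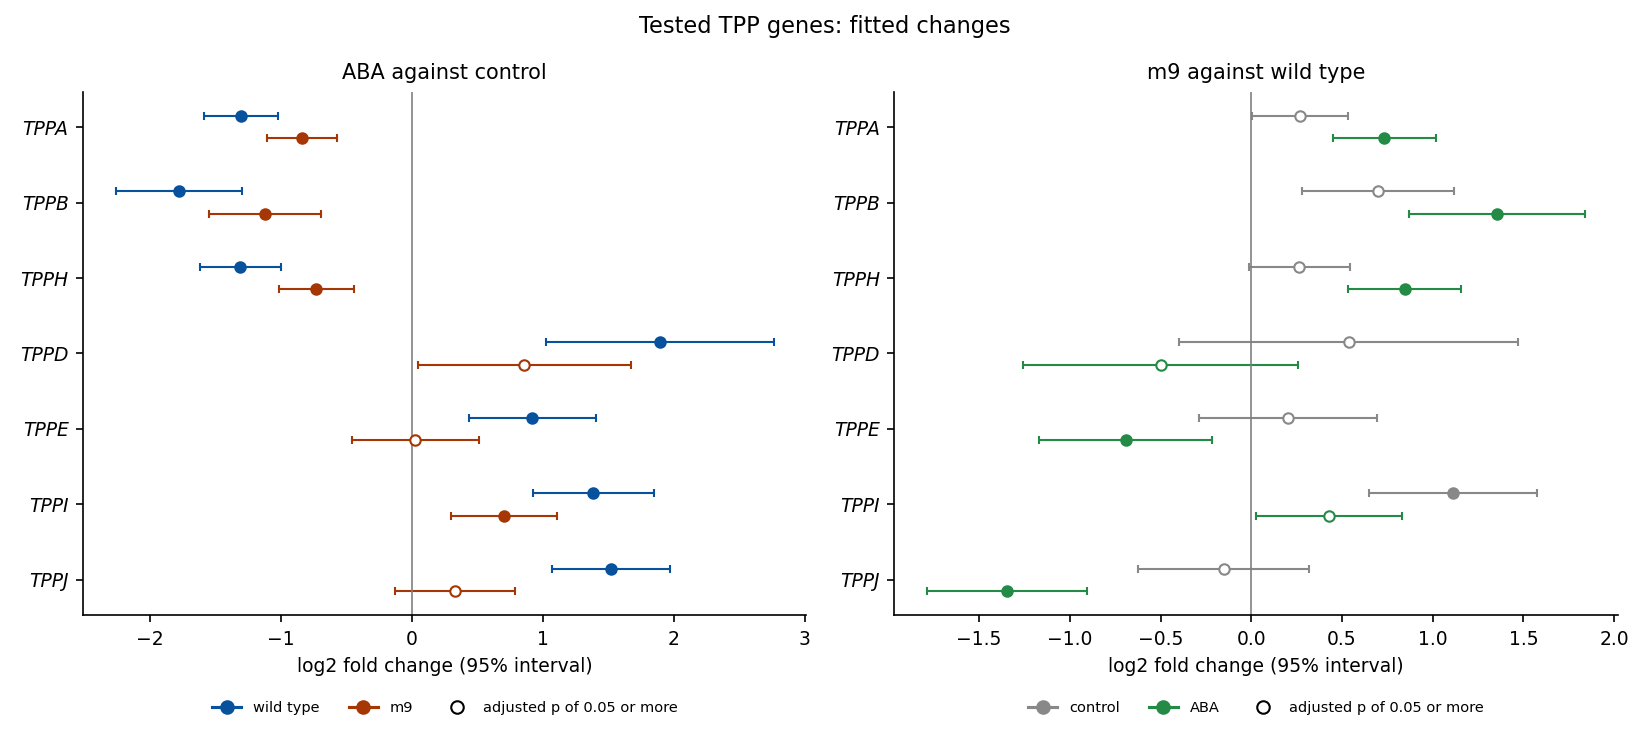
Fitted log2 fold changes of the 7 tested members with 95% intervals (x axis), for ABA against control in each genotype (left) and for m9 against wild type in each treatment (right), with filled points where the adjusted p is below 0.05. In m9 the ABA changes of TPPE and TPPJ lie near 0.02 and 0.33, and with ABA TPPJ is lower in m9 by a log2 fold change of -1.35.

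The same comparison in m9 asks which changes remained in the mutant. TPPA, TPPB and TPPH were lower with ABA, TPPI was higher, and TPPD, TPPE and TPPJ did not pass the test. Of all tested genes 25.9% were higher and 26.1% were lower. Root markers summed to 61.5 to 68.9 CPM in m9 control and 79.5 to 102 CPM in m9 ABA, with 5 of the 6 higher. Guard cell markers summed to 54.4 to 55.5 CPM and 46.4 to 49.7 CPM, with 1 of the 4 lower, and shoot markers to 37599 to 42895 CPM and 37390 to 40796 CPM, with 1 of the 4 lower. The part of these markers in the TPP changes was not tested. TPPA had 35.3, 31.5 and 29.6 CPM in m9 control and 19.5, 17.2 and 17.2 CPM in m9 ABA, with no overlap. Its log2 fold change was -0.84 (SE 0.12, edgeR adjusted p = 1.33e-04). TPPB had 20.03, 16.2 and 17.3 CPM in control and 8.95, 7.50 and 8.14 CPM with ABA, again apart, for a log2 fold change of -1.12 (SE 0.20, edgeR adjusted p = 4.51e-04). TPPH had 11.9, 11.3 and 10.7 CPM in control and 7.33, 6.49 and 6.67 CPM with ABA, and its log2 fold change was -0.73 (SE 0.13, edgeR adjusted p = 5.49e-04). These 3 members, lower in wild type too, ended higher in m9 with ABA than in wild type with ABA.

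TPPI had 3.67, 5.06 and 3.59 CPM in m9 control and 6.61, 7.89 and 5.58 CPM in m9 ABA. The groups were apart, and the log2 fold change was 0.70 (SE 0.19, edgeR adjusted p = 0.00708). TPPJ had 6.18, 5.60 and 5.47 CPM in m9 control and 8.04, 6.20 and 7.41 CPM in m9 ABA. The treated libraries were all slightly above the controls, yet the log2 fold change of 0.33 (95% interval -0.13 to 0.79) did not pass the test (edgeR adjusted p = 0.215).

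TPPE had 14.2, 11.1 and 10.8 CPM in m9 control and 10.8, 13.6 and 12.3 CPM in m9 ABA, so the groups overlapped. Its log2 fold change was 0.02 with a 95% interval of -0.46 to 0.51 (edgeR adjusted p = 0.938). TPPD had 1.98, 1.15 and 1.18 CPM in m9 control and 3.05, 2.66 and 2.20 CPM in m9 ABA. Its log2 fold change of 0.86 had a 95% interval of 0.04 to 1.67 and missed the threshold after adjustment (edgeR adjusted p = 0.0724). TPPD passed when WT control replicate 3 was left out (adjusted p = 0.00935) and when m9 control replicate 1 was left out (adjusted p = 0.0446). No member changed 3-fold in m9 with ABA, where 3.56% of genes were higher and 2.43% lower by that rule.

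Without treatment, m9 and wild type differed in 1 of the 7 tested members. TPPI was higher in m9, at 3.67, 5.06 and 3.59 CPM against 1.65, 2.39 and 1.68 CPM in wild type. Its libraries did not overlap, and the log2 fold change was 1.11 (SE 0.21, edgeR adjusted p = 0.0125), against 2.58% of all genes higher and 2.29% lower. In a fit of only these 2 groups the TPPI call was lost (adjusted p = 0.0886). The TPPI level of m9 control overlapped with that of WT ABA, where the libraries had 4.28 to 5.41 CPM. TPPB was also higher in every m9 library, with a log2 fold change of 0.70 (SE 0.19), but did not pass (edgeR adjusted p = 0.0584). No member was lower in edgeR at the adjusted threshold, nor at an unadjusted p below 0.05, nor in DESeq2, where the count was 0 as well.

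With ABA the 2 genotypes differed in 5 of the 7 tested members. TPPA, TPPB and TPPH were higher in m9 and TPPE and TPPJ were lower, while 21.3% of all genes were higher and 20.7% lower. TPPJ showed the widest gap among the lower members, with 8.04, 6.20 and 7.41 CPM in m9 against 18.2, 16.1 and 20.8 CPM in wild type, a 2.54-fold difference (log2 fold change -1.35, SE 0.20, edgeR adjusted p = 1.94e-04). TPPB showed the widest gap among the higher members, 2.56-fold, with 8.95, 7.50 and 8.14 CPM in m9 against 2.23, 3.94 and 3.43 CPM in wild type (log2 fold change 1.35, SE 0.23, edgeR adjusted p = 3.87e-04). TPPA was higher by a log2 fold change of 0.73 (edgeR adjusted p = 6.76e-04) and TPPH by 0.85 (edgeR adjusted p = 4.72e-04), both with no overlap between the groups.

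TPPE was lower in m9 with ABA by a log2 fold change of -0.69 (SE 0.22, edgeR adjusted p = 0.0227). This call was lost when WT ABA replicate 3 (adjusted p = 0.0855), m9 ABA replicate 1 (adjusted p = 0.0822) or m9 ABA replicate 3 (adjusted p = 0.0595) was left out. TPPD, with a log2 fold change of -0.50 (edgeR adjusted p = 0.272), and TPPI, with 0.43 (edgeR adjusted p = 0.0808), did not pass. Shoot markers summed to 37390 to 40796 CPM in m9 ABA against 30099 to 33270 CPM in WT ABA, with 3 of the 4 higher. Guard cell markers summed to 46.4 to 49.7 CPM against 36.1 to 38.4 CPM, with MYB60 and FAMA higher and SCAP1 lower. The part of these markers in the differences was not tested.

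Whether the ABA response itself differed between the genotypes was tested by the interaction, the response in m9 minus that in wild type. TPPJ was the 1 member that passed: its response was smaller in m9 by 1.19 on the log2 scale (value -1.19, SE 0.30, edgeR adjusted p = 0.0146), where 9.55% of all genes had a lower and 8.62% a higher interaction. TPPJ rose 2.87-fold in wild type and its fitted change in m9 was 1.25-fold. No member had a higher interaction in edgeR after adjustment or in DESeq2, although 3 did at an unadjusted p below 0.05.

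TPPH came nearest on that side, at 0.58 (SE 0.19, edgeR adjusted p = 0.0542), followed by TPPA at 0.46 (adjusted p = 0.0903) and TPPB at 0.66 (adjusted p = 0.145). TPPE at -0.89 (adjusted p = 0.0679), TPPI at -0.68 (adjusted p = 0.117) and TPPD at -1.04 (adjusted p = 0.217) lay on the side of TPPJ. Leaving out WT control replicate 3 brought TPPA, TPPB, TPPH and TPPE past the threshold, with adjusted p of 0.0403, 0.0151, 0.0256 and 0.0400. Leaving out WT ABA replicate 2 did so for TPPA (adjusted p = 0.0312) and TPPH (adjusted p = 0.0190), and leaving out WT control replicate 2 for TPPE (adjusted p = 0.0186).

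Close relatives were read side by side. TPPE and TPPH, with 80.2% identical residues and alike G-box windows, moved in opposite directions in wild type, 1.89-fold up and 2.48-fold down. TPPI and TPPJ, with 76.6% identical residues, both rose in wild type, while in m9 TPPI rose and TPPJ did not pass. The differences between genes were not tested.

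The other enzymes of the pathway were read from the same fit. TPS1, a synthase that makes T6P in Arabidopsis, had 31.0 to 44.7 CPM in WT control and 43.3 to 48.9 CPM in WT ABA, and did not pass (log2 fold change 0.26, edgeR adjusted p = 0.108). In m9 it was lower with ABA, with 37.6 to 51.3 CPM in control and 30.1 to 35.1 CPM with ABA (log2 fold change -0.45, edgeR adjusted p = 0.0145), and its interaction of -0.71 passed as well (edgeR adjusted p = 0.0229). TPS2, TPS3 and TPS4 were too low to test. Of the 7 class II synthases, whose proteins resemble TPS1 but have little known synthase activity, 6 were higher and 1 was lower with ABA in wild type, against 32.2% and 36.4% of all genes, with a median log2 fold change of 1.07 against -0.06. TPS11 rose 3.44-fold, from 166 to 325 CPM in WT control to 696 to 818 CPM in WT ABA (log2 fold change 1.78, SE 0.25, edgeR adjusted p = 2.52e-05). TPS5 was the one that fell, by 0.52 on the log2 scale (edgeR adjusted p = 0.0278), although its libraries overlapped.

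In m9, 6 of the 7 class II genes were higher with ABA and none was lower, at an unadjusted p below 0.05 as well, against 25.9% and 26.1% of all genes. None of the 7 passed for the interaction in edgeR after adjustment, and 1 of them did, on the lower side, at an unadjusted p below 0.05. TRE1, the trehalase, had 16.58 to 30.8 CPM in WT control and 84.5 to 89.8 CPM in WT ABA, a 4.01-fold rise (log2 fold change 2.00, SE 0.23, edgeR adjusted p = 4.01e-06). In m9 it went from 10.6 to 19.96 CPM to 46.9 to 55.1 CPM, a 3.24-fold rise (edgeR adjusted p = 5.66e-05). Its interaction of -0.31 did not pass (edgeR adjusted p = 0.530), and with ABA it was lower in m9 than in wild type by 0.79 on the log2 scale (value -0.79, edgeR adjusted p = 0.00974).

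**Figure D4:**
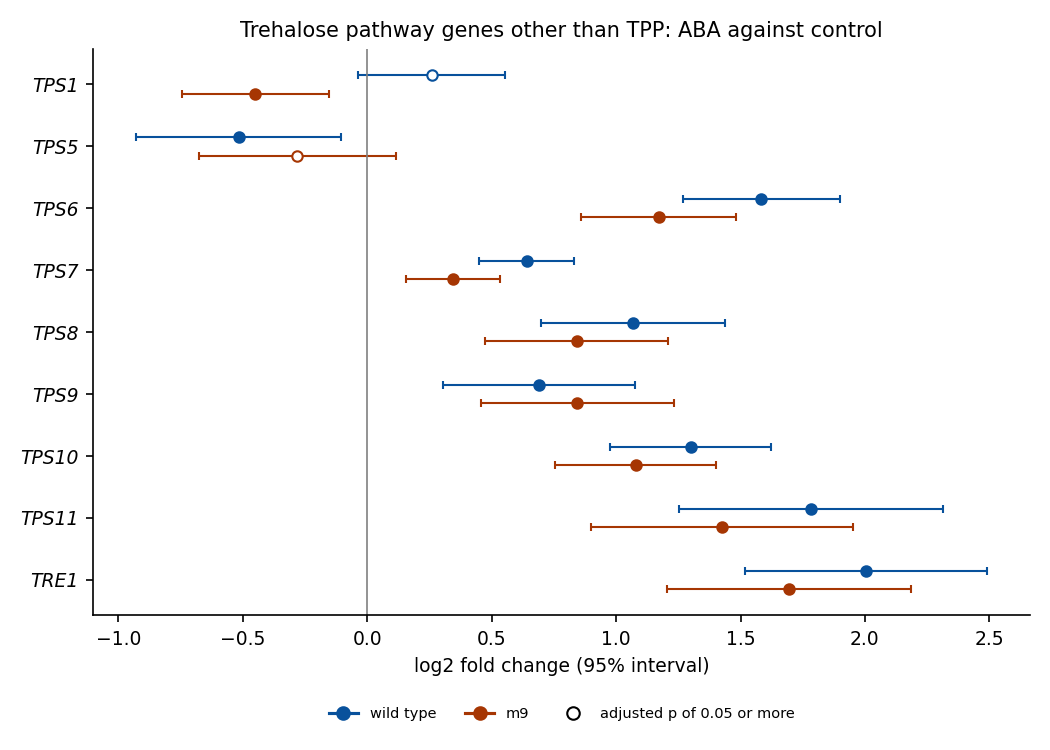
Fitted log2 fold changes with 95% intervals (x axis) for ABA against control in wild type and in m9, for TPS1, the 7 class II synthases and TRE1, with filled points where the adjusted p is below 0.05. TRE1 rises by 2.00 in wild type and 1.69 in m9, TPS5 lies below 0 and TPS1 is on opposite sides of 0 in the 2 genotypes.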

How the data were processed

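The authors deposited 1 table of raw read counts per gene for the 12 libraries. Per the labels' processing notes and the study's methods, reads were trimmed with Trimmomatic (0.36 in the notes), aligned to TAIR10 with HISAT2 (2.1.0) and counted with htseq-count of HTSeq (0.9.1 in the notes). The methods name other versions of Trimmomatic and HTSeq, a directional kit and an older seedling age, while the labels name a TruSeq kit and Trizol. Strand and overlap settings are not given in the sources used here, and 0 columns lacked a sample. Of the 33602 IDs, 32835 matched the RefSeq TAIR10.1 annotation.

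Counts were fitted with edgeR 4.0.16 (R 4.3.3) by its quasi-likelihood test, with TMM factors, filterByExpr by group (20617 genes) and a mean for each of the 4 groups, and p-values were adjusted by Benjamini-Hochberg over all tested genes. Calls use an FDR below 0.05, and the fold minimum of 3 that the study used is given beside them. The SE is the log2 fold change over the square root of F. The fit was tested before use on simulated data in which few genes changed, up and down alike. The ABA response here reached most genes, so that test did not check the TMM factors. Exon lengths, uORF marks and upstream windows come from RefSeq, and protein identities from BLOSUM62 global alignment of translated coding sequence (Biopython 1.88). DESeq2 1.42.0, 2 other scalings, 2 other filters, a replicate block, fits of only the groups compared and leaving out each library were the alternatives.

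The members, gene lists and tests were chosen with earlier results of these data known. All 10 TPP genes are named. Of the other pathway genes TPS1 and TRE1 are named, with those past the FDR in wild type with the largest rises and falls (at most 2 of each), and of each further list the largest rise and fall. Replicate libraries differed by 4.39 to 46.8 in chi-square per gene, so none was a copy of another. The 95% intervals cover the spread between libraries as the fit estimates it. Floors and counts of 0 cover counting error only.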

Additional observations from a re-analysis of the deposited data

Results flagged for a closer look

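TPPJ was the member whose ABA response differed between the genotypes by a test of the difference itself. Its response in m9 minus that in wild type was -1.19 on the log2 scale (edgeR adjusted p = 0.0146), with all 3 m9 ABA libraries (6.20 to 8.04 CPM) below all 3 WT ABA libraries (16.1 to 20.8 CPM). The adjusted p ran from 0.00136 to 0.0411 over the alternatives. Root cap markers summed to 5.99 to 7.93 CPM in WT ABA and 5.18 to 5.38 CPM in m9 ABA. Of these 3 genes, 2 also had a lower interaction, against 9.55% of all tested genes. SMB of that list had means of 1.98 CPM in WT ABA and 2.16 CPM in m9 ABA. For the interaction, 0 of the 6 root markers passed, and 1 of 4 shoot and 1 of 4 guard cell markers were higher. The part of these markers in the TPPJ difference was not tested. No group has 4 or more libraries, so no formal test for outlying libraries was made. Single libraries were read only by the chi-square of replicate pairs and by leaving each one out.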

How the results depend on the processing

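The 4 higher and 3 lower members with ABA in wild type held under every alternative at the FDR threshold that tested them; a minimum of 10 counts in every library removed TPPD from the test. With the 3-fold minimum the counts were 1 and 1 in wild type with ABA, 0 higher and 3 lower when library totals were used as well (chosen after seeing the data), and 0 in both directions in m9 with ABA, in m9 against wild type under either treatment and in the interaction. Higher members with ABA in m9 came to 2 in the replicate block (TPPD, adjusted p = 0.0457) and in the fit of only the groups compared (TPPD, adjusted p = 0.0156), and to 1 to 2 without one library. Higher members in m9 control came to 2 with DESeq2 and with no low-count filter (TPPB added), to 0 in the fit of only the groups compared (TPPI, adjusted p = 0.0886) and to 1 to 2 without one library, where WT control replicate 2 or WT ABA replicate 1 left out added TPPB (adjusted p = 0.0263 and 0.0489). Lower members in m9 with ABA came to 1 with library totals (TPPE, adjusted p = 0.0776) and to 1 to 2 without one library. In the interaction, 1 member was higher with library totals (TPPH, adjusted p = 0.0297) and 0 to 3 without one library, and 2 were lower with DESeq2 and with no low-count filter (TPPE added) and 1 to 2 without one library. TPPI was higher in m9 with ABA with library totals (adjusted p = 0.0283), in the replicate block (adjusted p = 0.0468) and in the fit of only the groups compared (adjusted p = 0.0332). The cause of these shifts was not tested. Library totals moved the median log2 fold change of all genes by -0.30 for ABA in wild type, -0.17 in m9, 0.15 for m9 against wild type with ABA and 0.13 for the interaction, and the split for ABA in wild type from 6636 higher and 7500 lower to 4242 and 10516. No value changed sign and call together in any alternative. Of 233 values of single members over all libraries 221 kept their side of the threshold, as did 406 of 420 without one library. Whether the replicate numbers pair the libraries could not be told. Over 18 pairs the correlations of same-numbered libraries ran from -0.38 to 0.27, with 2 over 0.1, but libraries of different numbers were not compared. The replicate block changed no TPP call other than those of TPPD and TPPI named above. The interaction had no fit of only the groups compared. With 3 libraries a group and few counts, TPPD and TPPC limit what can be told.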

Other observations

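Sugar genes outside the trehalose pathway were read from the same fit as values only, beside the 32.2% of all genes that were higher and the 36.4% lower with ABA in wild type and the 25.9% higher and 26.1% lower in m9. Of the 7 subunits of SnRK1, the kinase that T6P inhibits, 6 were higher with ABA in wild type and 5 in m9, with medians of 0.73 and 0.28 on the log2 scale. KIN11, a catalytic subunit, rose 1.99-fold, from 53.5 to 75.8 CPM in WT control to 122 to 129 CPM in WT ABA (edgeR adjusted p = 6.17e-06). Of 8 dark-inducible genes, which respond to low sugar, 6 were higher and 1 was lower in wild type and 7 were higher in m9. DIN2, a beta-glucosidase, rose 25.5-fold in wild type (edgeR adjusted p = 9.20e-06) and 10.8-fold in m9 (edgeR adjusted p = 2.23e-04), and DIN11 fell by 1.32 on the log2 scale in wild type (edgeR adjusted p = 0.0455) with libraries that overlapped.

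Of 6 sucrose synthases, which cleave sucrose, 3 were higher with ABA in wild type and 2 in m9, the latter close to the share of all genes. SUS3 went from 8.17 to 13.8 CPM in WT control to 277 to 319 CPM in WT ABA, a 27.8-fold rise, and rose 7.92-fold in m9, and its interaction of -1.81 passed (edgeR adjusted p = 5.85e-04). Of 4 sucrose phosphate synthases, which make sucrose phosphate, 3 were higher and 1 was lower in wild type. SPS2F rose 21.2-fold in wild type and 7.27-fold in m9 with an interaction of -1.55 (edgeR adjusted p = 1.50e-05). SPS4F fell in wild type by 1.33 and in m9 by 1.78 on the log2 scale (edgeR adjusted p = 1.70e-05 and 3.82e-06), with an interaction of -0.45 that did not pass (adjusted p = 0.222).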
